A study of Mus musculus with 4 samples.

Results

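Potassium channel genes were examined in cochlear ducts from which *Tbx2* had been deleted in *Sox2*-expressing cells. The genes were taken as all array names made of Kcn, the letters of a subfamily and a number. This gave 92 genes, read by 140 probes, of 29924 genes and 39429 probes on the array. To be tested, a probe had to be well above its local background in 4 or more of 8 measurements (4 arrays, 2 colours), and each gene was represented by its brightest tested probe. On this basis 72 of the 92 genes (78.3%) were tested, against 21042 of all genes (70.3%). The other 20 were *Kcna10*, *Kcnab2*, *Kcne1*, *Kcng3*, *Kcng4*, *Kcnh1*, *Kcnh7*, *Kcnip2*, *Kcnj1*, *Kcnj3*, *Kcnj5*, *Kcnj6*, *Kcnk10*, *Kcnk12*, *Kcnk18*, *Kcnmb1*, *Kcnmb3*, *Kcnn1*, *Kcns2* and *Kcnv1*. In 19 of these no measurement was well above background. *Kcnk10*, the remaining one, was well above background in 1 control pool.

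All embryos were NMRI mice at E14.5, from dams given 4 mg tamoxifen by mouth at E12.5. The *Sox2-Tbx2LOF* mutants were of the genotype Sox2(creERT2);Tbx2(fl/fl), in which CreERT2, a Cre recombinase that works only with tamoxifen, sits in the *Sox2* locus and recombines a *loxP*-flanked *Tbx2*. By the cross in the methods a Cre reporter at *R26* came from the dams, so that littermates without Cre would carry it like the mutants. The controls are labelled Tbx2(fl/n.d.), with the second *Tbx2* allele not determined, and the methods describe them as lacking Cre. The mutants thus differed from the controls by the *Sox2* knock-in as well as by *Tbx2*. RNA came from pools of whole cochlear ducts with the spiral ganglion dissected away, 4 pools per genotype, sorted by sex. Each of the 4 two-colour arrays held 1 mutant and 1 control pool of the same sex, female on arrays 1 and 2 and male on arrays 3 and 4. The mutant carried Cy5 on arrays 1 and 3, and Cy3 on the other two. A value named a ratio is the log2 ratio of mutant over control within an array, and a value named a level is the normalized log2 intensity of a pool. Levels of different probes are not comparable with each other.

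Potassium channels let potassium ions leave or enter a cell along their gradient and so set the resting potential and shape excitation. They fall into voltage-gated channels, inward rectifiers, 2-pore channels that leak at rest, and channels opened by intracellular calcium or sodium, all of which can carry accessory subunits. The mature cochlea depends on them in several places: *Kcnq1* with *Kcne1* secretes potassium into the endolymph, *Kcnj10* in the stria vascularis helps to build the endocochlear potential, and *Kcnma1* forms the fast calcium-activated channel of inner hair cells. Hair cells have not yet differentiated at E14.5.

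*Tbx2* itself, the deleted gene, had a ratio of −0.12 ± 0.098 (SD, n = 4), below 0 on 4 of 4 arrays, which did not pass the test (limma, adjusted p = 0.124). In the paper's immunofluorescence at E14.5, recombined organ of Corti cells had lost TBX2 protein completely. The pools here held RNA of whole ducts, and the place of the *Tbx2* probe relative to the deleted stretch was not looked up. *Sox2* stood at 0.012 (adjusted p = 0.935), and *Esr1*, whose sequence is part of CreERT2, was well above background in 4 mutant pools and in 0 control pools. The 10 cochlear epithelium markers examined, among them *Epcam* and *Pax2*, were all detected and tested. Of these, *Lfng* (−0.52), *Fgf10* (−0.47) and *Jag1* (−0.19) were lower and *Gata3* (0.34) was higher at an adjusted p below 0.05. The summed linear level of all 10 markers was between 270000 and 284000 in the mutant and between 245000 and 270000 in the control pools. In this and the following sums the brightest probes weigh most, so a fall of dimmer genes hardly shows. Over all tested genes, 2.92% were lower and 2.26% higher at an adjusted p below 0.05 in limma. At an unadjusted p below 0.05 these shares were 10.8% and 9.46%. Markers of other cell types were measured too. Of 14 tested neuronal genes, 11 were lower and 1 higher in the mutant (median ratio −0.45), led by *Stmn3* at −1.75 and *Stmn4* at −1.74. Their sum was between 56800 and 61900 in the mutant and between 60300 and 63100 in the control pools. Of 9 Schwann cell precursor genes, 4 were lower, with *Foxd3* at −1.18 and *Fabp7* at −1.03, and 1 was higher, while *Sox10* stood at 0.0099. *Fabp7* and *Ngfr* (−0.74), 2 of the 4 lower genes, are also known from supporting cells of the cochlear epithelium. The sum over all 9 Schwann cell precursor genes was between 174000 and 201000 in the mutant and between 179000 and 208000 in the control. No tested gene of the melanocyte (7 genes), endothelial (5) or blood (5) lists passed in limma at an adjusted p below 0.05 (at an unadjusted p below 0.05, 1 melanocyte, 1 endothelial and 0 blood genes were lower and 1, 1 and 2 higher). Of 8 mesenchymal genes, 7 had a ratio above 0 and 1 of them, *Col1a1*, was higher at 0.27, with 4 higher and 0 lower at an unadjusted p below 0.05. Their sum was between 185000 and 209000 in the mutant and between 163000 and 184000 in the control pools, without overlap, and its part in the results was not tested. Of the hair cell genes, *Myo7a* was higher at 0.17 (adjusted p = 0.0398), while *Atoh1*, *Pou4f3*, *Myo6*, *Gfi1* and *Tmc1* were at 0.05, 0.04, 0.09, −0.09 and −0.13 and did not pass. The summed level of the 6 tested hair cell genes was between 3690 and 4760 in the mutant and between 3810 and 4560 in the control pools. Fewer cells of a type and less RNA per cell cannot be told apart in such pools.

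In the mutant, 7 of the 72 tested potassium channel genes were lower and 1 was higher at an adjusted p below 0.05 (9.72% and 1.39%). Over all tested genes the same test gave 2.92% lower and 2.26% higher. The lower genes were *Kcnj10*, *Kcnma1*, *Kcnmb2*, *Kcnc2*, *Kcnn4*, *Kcne3* and *Kcnc1*. The differences were small. None of the 8 reached a fold change of 1.5, against 0.309% of all genes lower and 0.133% higher by that rule. At an unadjusted p below 0.05, 18 genes were lower and 6 higher in limma (25% and 8.33%), against 10.8% and 9.46% of all genes. The probes that read these 7 genes are shown here by the first 30 of their 60 bases, 5′ to 3′ as on the transcript, so that each value can be tied to a place in its gene. Positions are those of mm9.

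Kcnj10 (chr1:174304062-174304091, plus strand): gaaacagaagaatctagggatgatttctct
Kcnma1 (chr14:24111738-24111767, minus strand): agagcgtggtttgtttctttgtctttcaca
Kcnmb2 (chr3:32098621-32098650, plus strand): ggaagcagaatattgtaattcatagtgtga
Kcnc2 (chr10:111902778-111902807, plus strand): tctacatagaaatctaaccatttcttggtc
Kcnn4 (within chr7:25169184-25169782, plus strand): gccacatagctccacatgaactcacagaag
Kcne3 (chr7:107333062-107333091, plus strand): gaactcaactcaaccatatcaagccacagt
Kcnc1 (chr7:53688622-53688651, plus strand): gccttgccgtcttgtacgacagactttttt

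The 60 bases of the *Kcnn4* probe are spread over a longer genomic stretch, so only the outer bounds are given for it. The other 6 probes each lie in 1 unbroken stretch.

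Among the inward rectifiers, *Kcnj10* was the gene that fell. The channel it encodes takes up potassium in glia and in the stria vascularis. Its level was 11.00, 11.22, 10.92 and 11.30 in the mutant pools of arrays 1 to 4. In the control pools it was 11.48, 11.45, 11.63 and 11.42. Every mutant pool lay below every control pool, and the 2 lowest pools were the mutant pools of arrays 1 and 3. On average it came to −0.38 ± 0.26 (SD, n = 4; limma SE 0.0459, 95% interval −0.49 to −0.28, adjusted p = 0.00349) as a ratio, so that the mutant level was 76.7% of the control level. It was −0.35 on the female and −0.41 on the male arrays. *Kcnj16*, which forms a channel together with *Kcnj10*, had ratios of 0.03, 0.33, 0.03 and 0.17 (mean 0.14, adjusted p = 0.0907). All 4 were above 0, yet its pools overlapped between the genotypes. The other 9 tested inward rectifiers had ratios between −0.16 (*Kcnj12*) and 0.06 (*Kcnj9*), and none passed. Whether the fall of *Kcnj10* goes with that of the Schwann cell precursor genes named above was not tested. The 7 melanocyte genes, markers of the lineage that gives the intermediate cells of the stria, had ratios between −0.145 (*Tyrp1*) and 0.09 (*Pmel*), 3 below and 4 above 0.

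Of the calcium-activated channels, *Kcnma1* and *Kcnn4* fell. *Kcnma1* encodes the pore of the large-conductance channel, which opens with voltage and calcium. Its level was 7.28, 7.36, 7.39 and 7.47 in the mutant pools and 7.85, 7.58, 7.91 and 7.68 in the control pools. The genotypes did not overlap, and the distance was larger on arrays 1 and 3 (ratios −0.57 and −0.52) than on arrays 2 and 4 (−0.22 and −0.21). Their mean was −0.38 ± 0.19 (SD, n = 4; adjusted p = 0.000807 in limma), or 76.9% of control. The probe was dim, at a background-subtracted brightness of 66.2 to 126.4 in the mutant and 126.5 to 161.7 in the control pools, and the size of the difference moved with the processing. It was −0.66 in Agilent's processed signals, in which background and dye are treated otherwise, and −0.485 with a smaller offset. In the processed signals *Kcnma1* and *Kcna2* passed with a fold change of at least 1.5, as did 0.556% of all genes in the lower direction. The probe of *Kcna2* was well above background in only 2 mutant and 3 control pools. A second tested *Kcnma1* probe nearer to the gene's start had a ratio of −0.042 (adjusted p = 0.597 over all probes). The difference was thus seen at only 1 of the 2 tested sites of the gene. A further *Kcnma1* probe, too dim to be tested, had a ratio below 0 on 4 of 4 arrays. It was well above background in 2 control and 0 mutant pools, so no size is given for it. The remaining *Kcnma1* probe was not well above background in any pool.

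*Kcnn4* encodes the intermediate-conductance channel of blood cells and epithelia. Its level was 8.78, 8.74, 8.76 and 8.91 in the mutant and 9.03, 9.12, 8.97 and 9.12 in the control pools. All mutant pools lay below all control pools. The ratio of −0.26 ± 0.079 (SD, n = 4; adjusted p = 0.011 in limma) varied less between the arrays than that of the other 6 genes that fell. *Kcnn2*, the small-conductance channel of the efferent synapse on hair cells, was at −0.020 (adjusted p = 0.817). *Kcnn3* had a ratio of −0.07. *Kcnu1*, at −0.12, was counted in this class by its subfamily letter, although its channel is not opened by calcium or sodium. The sodium-activated *Kcnt1* was at 0.10 (adjusted p = 0.2) and *Kcnt2* at 0.02. The median of the 7 tested genes of this class was −0.072, against 0.0024 over all genes.

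Both accessory subunits that fell partner channels described here. *Kcnmb2* encodes a beta subunit of the channel formed by *Kcnma1*. Its level was 8.36, 7.59, 8.17 and 7.67 in the mutant and 8.35, 7.94, 8.33 and 8.34 in the control pools. The genotypes overlapped, and on array 1 the pools differed by 0.00. The mean ratio was −0.29 ± 0.29 (SD, n = 4; adjusted p = 0.0308 in limma), and it did not pass with the array as a replicate block (adjusted p = 0.108). The ratio was −0.34 and −0.67 with the mutant in Cy3 and 0.00 and −0.15 with the mutant in Cy5. In Agilent's processed signals the mean was −0.45 (adjusted p = 0.0486). *Kcnmb4*, another beta subunit, was at 0.0032 (95% interval −0.075 to 0.081). *Kcne3* encodes a subunit that holds the *Kcnq1* channel open in epithelia. Its level was 10.98, 10.99, 11.02 and 11.10 in the mutant and 11.10, 11.52, 11.11 and 11.39 in the control pools. The highest mutant pool reached the lowest control pool to the second decimal, and the ratio was below 0 on 4 of 4 arrays. The mean was −0.26 ± 0.20 (SD, n = 4; adjusted p = 0.0206). Its second tested probe gave −0.24 (adjusted p = 0.0475 over all probes). *Kcnq1* itself was at −0.14 ± 0.037, below 0 on 4 of 4 arrays, and did not pass (adjusted p = 0.0644). Among the subunits of the transient voltage-gated channels, *Kcnip4* was at −0.19 (adjusted p = 0.062) and *Kcnip1* at −0.026 (adjusted p = 0.751). *Kcnab1*, which binds channels of the *Kcna* subfamily, was at 0.096 (adjusted p = 0.284).

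**Figure D1:**
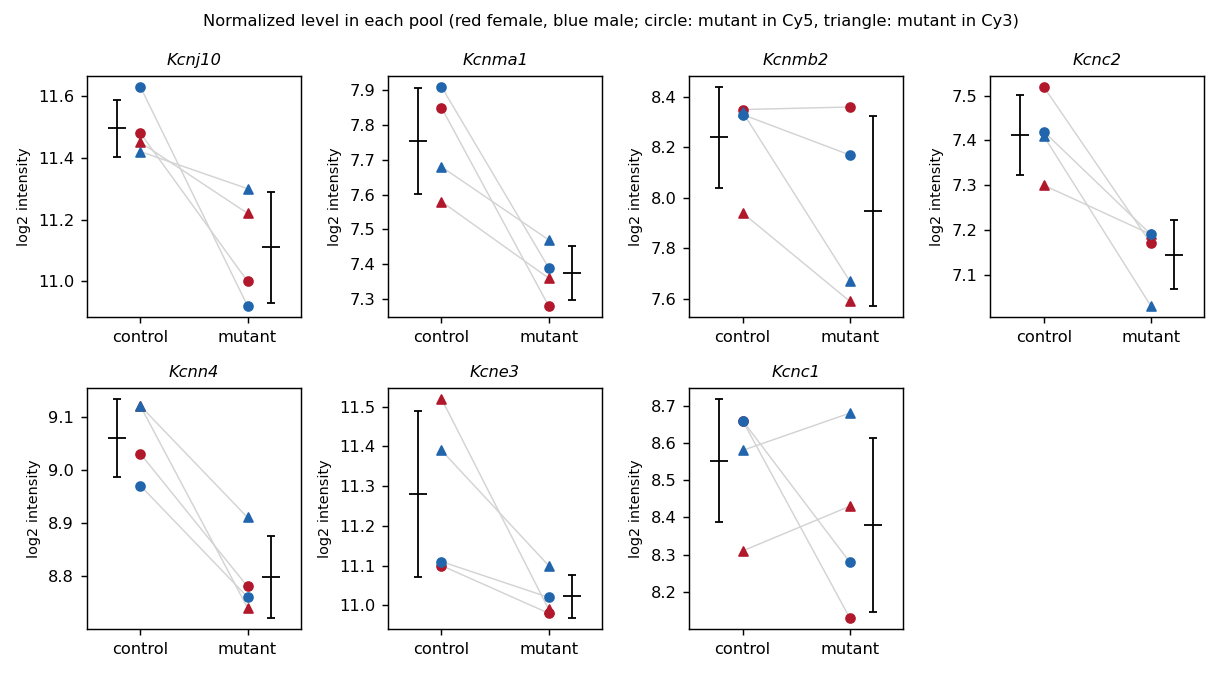
Normalized log2 intensity of the 7 lower genes at an adjusted p below 0.05 in each of the 4 control and 4 mutant pools; grey lines join the pools of an array, and black bars give the mean and SD. *Kcnj10* and *Kcnma1* separate the genotypes without overlap, whereas *Kcnmb2* and *Kcnc1* overlap. Each panel has its own vertical range, which does not start at 0.

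Of the 33 tested voltage-gated channel genes, 2 were lower and 1 higher, against 2.92% and 2.26% of all genes. *Kcnc1* and *Kcnc2* encode fast channels that let neurons fire at high rates. *Kcnc2* had levels of 7.17, 7.19, 7.19 and 7.03 in the mutant and 7.52, 7.30, 7.42 and 7.41 in the control pools. The genotypes did not overlap, and the ratio was −0.26 ± 0.13 (SD, n = 4; adjusted p = 0.0287). Its probe was dim too, at a background-subtracted brightness of 46.8 to 97.3 in the mutant and 73.9 to 117.4 in the control pools. The ratio was −0.53 both in Agilent's processed signals (adjusted p = 0.0548) and in the authors' value table (adjusted p = 0.0871), and the adjusted p was 0.0516 with median centring, so that it did not pass in these 3 settings. *Kcnc1* had ratios of −0.53 and −0.38 with the mutant in Cy5 but 0.12 and 0.10 with the mutant in Cy3. Its mean ratio was −0.17 ± 0.33 (SD, n = 4; adjusted p = 0.0482 in limma) with a dye term of −0.28, and its pools overlapped. The adjusted p was 0.734 without the dye term and 0.0662 with the array as a replicate block. *Kcnc4*, of the same subfamily, was at −0.03. Of the 14 neuronal marker genes, 11 were lower and 1 was higher over the same pools (median ratio −0.45), and their part in the fall of *Kcnc1* and *Kcnc2* was not tested.

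*Kcnh6*, a voltage-gated channel of the *Kcnh* subfamily, had ratios of −0.08, 0.36, 0.28 and 0.20 (mean 0.19, adjusted p = 0.129). It was above 0 on 3 of the 4 arrays, and array 1 was the exception.

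Counted over all probes, 8 of the 88 tested potassium channel probes were lower and 0 higher in limma. The shares of all 27963 tested probes were 2.31% and 1.68%. At an unadjusted p below 0.05 in limma, 23 potassium channel probes were lower and 7 higher. The share of all probes at that unadjusted threshold is not given here. For genes instead of probes it was 10.8% lower and 9.46% higher. At the level of probes *Kcnc1* stood at an adjusted p of 0.0593. Of the 8 probes, 7 read *Kcnj10*, *Kcnma1*, *Kcnmb2*, *Kcnc2*, *Kcnn4* and *Kcne3* (2 probes). Of 15 genes with more than 1 tested probe, 16 further probes could be set against the brightest one. In 14 of these the ratio was within 0.2 of that of the brightest probe, and *Kcnma1* was an exception.

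**Figure D2:**
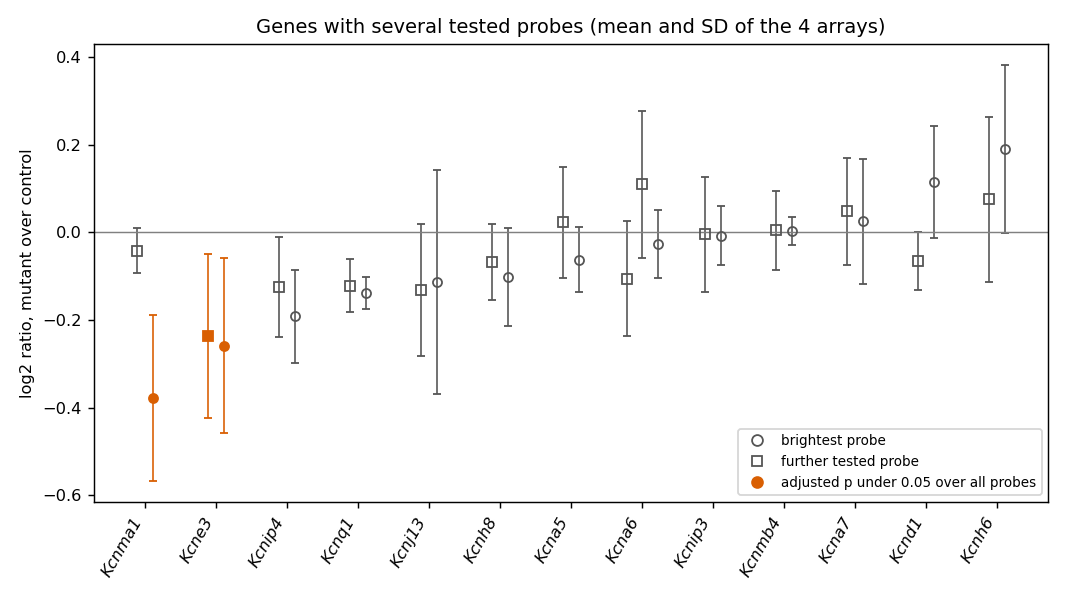
Mean log2 ratio of mutant over control (SD of 4 arrays) for every tested probe of 13 genes with several tested probes, circles for the brightest and squares for further probes. The further probe lies within 0.2 of the brightest in 13 of 14 cases, whereas that of *Kcnma1* lies near 0 and the brightest at −0.38.

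The list of 13 channel genes with a known place in the cochlea held 10 tested genes. Of these 2 were lower (*Kcnj10* and *Kcnma1*) and 1 was higher, against 2.92% and 2.26% of all genes, and the median ratio was 0.020. The 2-pore channels *Kcnk1* and *Kcnk2* were at 0.099 (adjusted p = 0.194) and 0.059 (adjusted p = 0.441). For *Kcnk2* the ratios were 0.29 and 0.25 with the mutant in Cy5 and −0.22 and −0.09 with the mutant in Cy3. *Kcne1*, *Kcna10* and *Kcnmb1* were not well above background in any pool and were not tested. *Kcnd1*, among the 6 largest rises, was at 0.11 (adjusted p = 0.146). Its second tested probe was at −0.0645 (adjusted p = 0.426 over all probes), and the mean over both was 0.025.

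**Figure D3:**
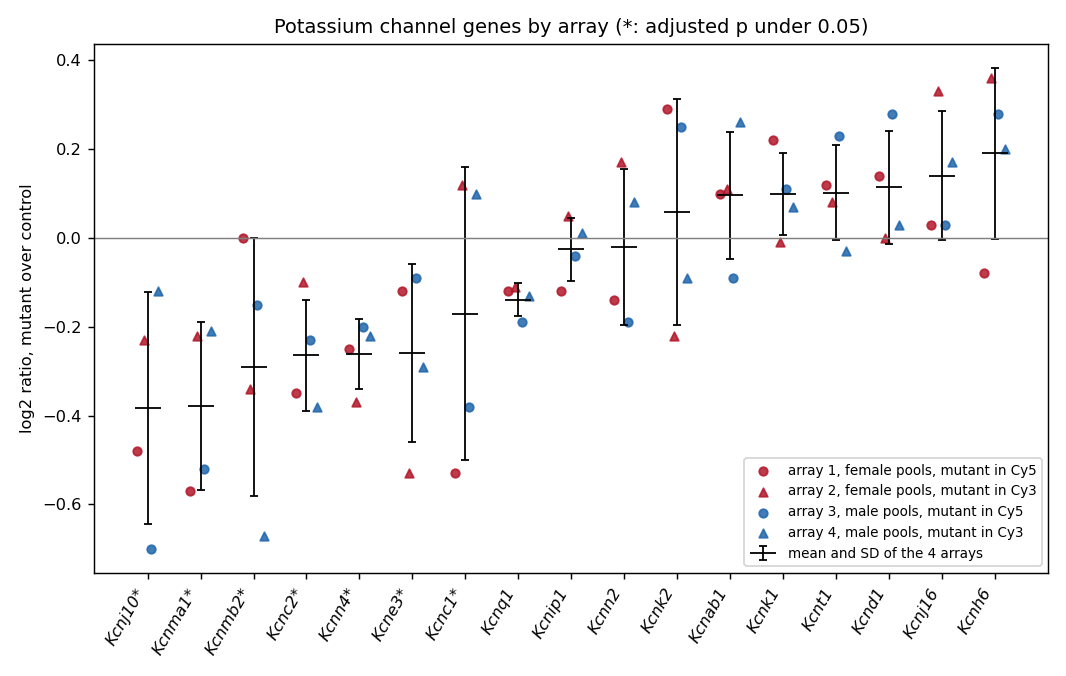
Log2 ratio of mutant over control on each array for 17 potassium channel genes, with mean and SD of the 4 arrays; colour gives the sex of the pools and the symbol the dye of the mutant. *Kcnj10*, *Kcnma1*, *Kcnc2*, *Kcnn4* and *Kcne3* are below 0 on all 4 arrays, and *Kcnc1* changes side with the dye.

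By class, the median ratio was −0.010 for the 33 voltage-gated genes, −0.033 for the 11 inward rectifiers and 0.033 for the 11 2-pore channels. It was −0.072 for the 7 genes grouped as calcium- or sodium-activated channels, *Kcnu1* included, and −0.052 for the 10 accessory subunits. The median over all 72 genes was −0.011. No 2-pore channel passed in either direction. At an unadjusted p below 0.05 in limma 0 were lower and 1 was higher, against 10.8% and 9.46% of all genes. Of the 11 2-pore channels, 9 had a ratio above 0, none of them over 0.10. A ratio within 0.1 of 0 was found for 49 of the 72 genes. The ratio was below 0 on all 4 arrays in 15 genes (20.8%), against 9.31% of all genes, and above 0 on all 4 arrays in 6 (8.33%), against 8.85%. Besides the 5 that passed, the 15 comprised *Kcnip4*, *Kcna2*, *Kcnj12*, *Kcnd3*, *Kcnq1*, *Kcnf1*, *Kcnj4*, *Kcnn3*, *Kcna5* and *Kcnh3*. In 7 genes every mutant pool lay below every control pool (9.72%, against 2.54% of all genes), and in 1 every mutant pool lay above (1.39%, against 1.74%). *Kcna2*, an axonal channel gene, and *Kcnd3*, a transient channel gene, were among the 7, with ratios of −0.17 (adjusted p = 0.0531) and −0.16 (adjusted p = 0.0683). The *Kcna2* probe was well above background in only 2 mutant and 3 control pools, so the size of its ratio is uncertain.

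**Figure D4:**
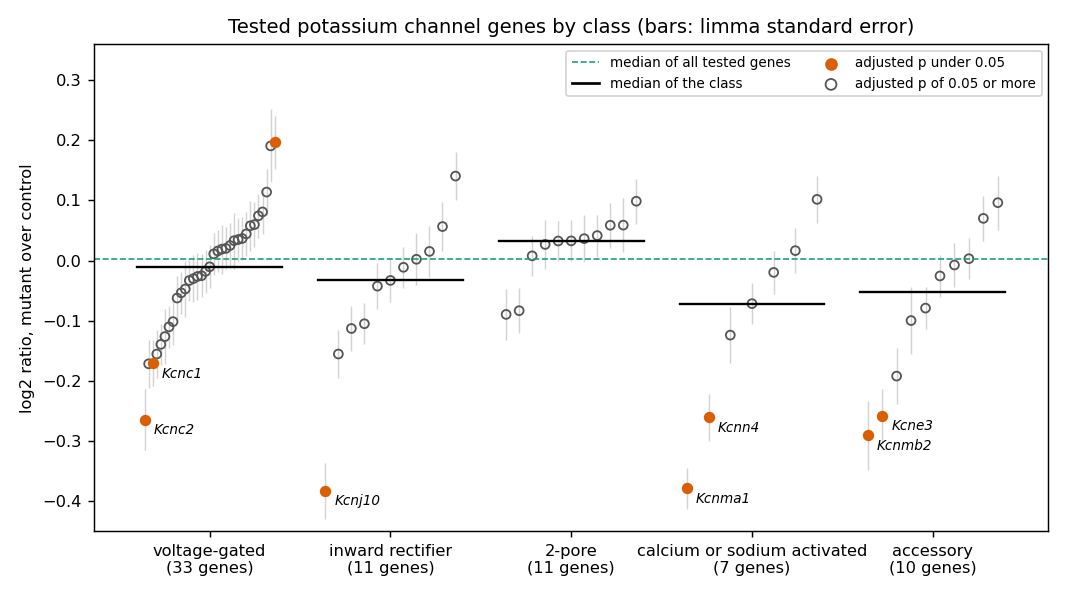
Log2 ratio of mutant over control of the 72 tested potassium channel genes in 5 classes, ordered by ratio, with the limma standard error; black lines are class medians and the dashed line the median of all 21042 genes. The 7 lower genes lie in 4 of the classes, and no 2-pore channel is among them.

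Dye and sex were examined for every gene, since arrays of the same dye direction resembled each other. Over all genes the ratios correlated at r = 0.679 between arrays 1 and 3 and at 0.616 between arrays 2 and 4, but between −0.104 and 0.0708 for arrays of opposite dye direction. Genes are not independent replicates. A dye term above 0.2 in size was found in 6 potassium channel genes (8.33%, against 5.58% of all genes). These were *Kcnj10* (−0.21), *Kcnmb2* (0.22), *Kcnc1* (−0.28), *Kcnj13* (−0.22), *Kcnk2* (0.21) and *Kcna4* (0.60). *Kcna4* had ratios of 0.64 and 0.49 with the mutant in Cy5 and −0.65 and −0.60 with the mutant in Cy3, which left a mean of −0.030 (adjusted p = 0.735). Without the dye term none of the 72 genes passed, against 0.827% of all genes lower and 0.428% higher. In that fit 13 lower and 2 higher genes had an unadjusted p below 0.05 in limma. The share of all genes at that unadjusted threshold is not given here for that fit, so the 13 and 2 stand without a comparison. Of the 8 genes that passed, 6 had the same direction on 4 of 4 arrays: 5 lower (6.94%, against 2.63% of all genes) and 1 higher (1.39%, against 1.7%). No gene differed between the sexes in its ratio (limma interaction, 0 of 72 at an adjusted p below 0.05, lowest adjusted p = 1, and 0% of all genes). At an unadjusted p below 0.05 there were 2 genes, *Kcnmb2* and *Kcne2*, or 2.78%, against 2.65% of all genes, and the interaction had 1 residual degree of freedom.

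**Figure D5:**
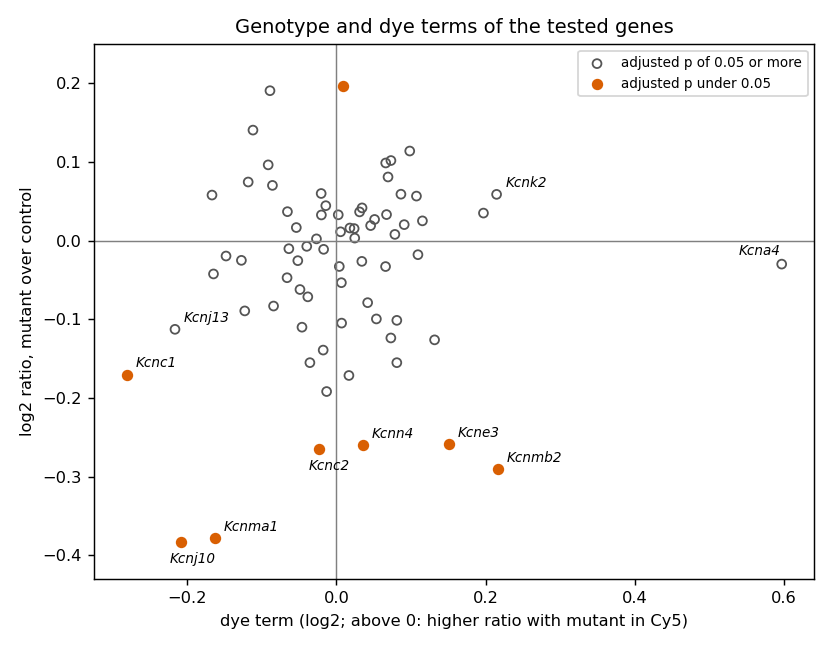
Genotype term (log2 ratio of mutant over control) against the dye term (above 0 where the ratio is higher with the mutant in Cy5) for the 72 tested potassium channel genes. *Kcna4* stands apart at a dye term of 0.60 with a genotype term near 0, and *Kcnc2* and *Kcnn4* have dye terms near 0.

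Leaving out an array changed how many genes passed. Without array 1 or array 3, those with the mutant in Cy5, 2 genes were lower, *Kcnj10* and *Kcnma1*, beside 1.37% and 1.1% of all genes. Without array 2 there were 7 (3.06% of all genes), and without array 4 there were 4 (1.69% of all genes). *Kcnj10* and *Kcnma1* passed in 15 of 16 further tests, all but the one with no dye term. *Kcnn4* passed in 12, *Kcne3* in 10, *Kcnmb2* in 9, *Kcnc2* in 8 and *Kcnc1* in 5 of the 16.

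Genes that act beside these channels were examined as well. Over all genes 2.92% were lower and 2.26% higher. Of 12 tested genes of potassium cycling in the inner ear, *Gjb2* and *Gjb6*, which encode the connexins of the epithelial gap junctions, were lower. *Gjb2* was at −0.18 ± 0.055 (SD, n = 4, limma adjusted p = 0.0309) and below 0 on 4 of 4 arrays. *Gjb6* was at −0.23 ± 0.29 (SD, n = 4, limma adjusted p = 0.0367) and below 0 on 3 of 4 arrays. The sodium-potassium pump genes *Atp1b1* and *Atp1b2* and the transporter gene *Slc12a2* had ratios between 0.05 and 0.12 and did not pass. Of 11 tested partners of channels that carry other names, 0 were lower and 3 were higher. At an unadjusted p below 0.05 in limma 1 was lower and 3 were higher, against 10.8% and 9.46% of all genes. *Ptpn5*, a neuronal tyrosine phosphatase, was at 0.89 (adjusted p = 4.31e-05). *Kcne1l*, a *Kcne* relative outside the naming rule, was at 0.27 (adjusted p = 0.0117), and *Amigo1*, a partner of voltage-gated channels, at 0.22 (adjusted p = 0.014). *Lrrc26*, a partner of the *Kcnma1* channel, was at −0.13 (adjusted p = 0.0991).

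TBX2 is a T-box factor, and T-box factors bind DNA with the core GGTGTG. The promoters of RefSeq (GRCm38.p6, 250 bases before to 50 after the gene start) were searched for GGTGTG and its reverse complement CACACC. All 92 symbols were found in the RefSeq gene table, and 67 had a promoter. The core occurred in 19.0% of all 32851 promoters, or in at least 1 promoter of 21.4% of the genes. It was in 17 of the 70 promoters of the tested potassium channel genes (24.3%), or 34.0% of their 50 genes. Of the 8 genes that passed, 7 had a promoter and 3 of these (42.9%; 3 of 11 promoters) held the core: *Kcnma1* and *Kcnc1* once, and *Kcnn4* 3 times. *Kcnj10*, *Kcnmb2*, *Kcnc2* and *Kcne3* had no match in this window. The longer motif AGGTGTGA, which contains the core, with its reverse complement TCACACCT, occurred in 1.28% of all promoters and in none of the 70. These are matches of letters, without any measure of binding. The promoters of *Kcnma1*, the gene with the lowest adjusted p, and of *Kcnn4*, with the most matches, are printed on the strand of the gene, with the core in capitals on either strand.

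Kcnma1 (chr14:24004156-24004455, minus strand): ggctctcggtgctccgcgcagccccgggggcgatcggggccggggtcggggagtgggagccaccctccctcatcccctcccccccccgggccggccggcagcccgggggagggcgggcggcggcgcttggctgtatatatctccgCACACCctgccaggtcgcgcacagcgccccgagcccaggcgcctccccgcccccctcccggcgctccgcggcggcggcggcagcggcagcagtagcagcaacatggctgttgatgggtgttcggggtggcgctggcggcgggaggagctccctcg
Kcnn4 (chr7:24370013-24370312, plus strand): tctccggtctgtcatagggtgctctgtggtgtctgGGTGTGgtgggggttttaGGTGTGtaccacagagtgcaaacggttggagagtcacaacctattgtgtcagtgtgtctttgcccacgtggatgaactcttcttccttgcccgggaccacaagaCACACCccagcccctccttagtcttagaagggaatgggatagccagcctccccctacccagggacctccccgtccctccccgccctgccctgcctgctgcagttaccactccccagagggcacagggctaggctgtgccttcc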

How the data were processed

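RNA of *Sox2-Tbx2LOF* and control cochlear ducts was hybridised by the authors to 4 Agilent two-colour arrays, 1 mutant and 1 control pool on each, and the groups, sexes and dyes were read from the labels. Scans were read by the authors with Agilent Feature Extraction (version 10.7.3.1 in the submitters' processing notes). The intensity values deposited by the authors are spot means and medians of the local background, without normalization, and Agilent's processed intensity, from which background was subtracted and in which dyes were normalized. The deposited log10 ratios of processed Cy5 over Cy3 served to check direction only. In the authors' value table each probe has a score, which reads as the fold change of the mutant with a sign for its direction, with a normalization not given in the sources used here (r = 0.882 to 0.913 with the ratios computed here). It served as an alternative. The file headers name another array design than the methods, and probe names and mm9 positions were taken from the files.

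Each array held 174979 spots, 4 for each of 39429 gene probes. Spots with an outlier flag (8.29% to 8.56%) were left out. No spot was saturated, and 69.2% to 72.0% of probes were well above background in a channel. Background was corrected with normexp (offset 50, which pulls ratios of dim probes towards 0), ratios were normalized by loess within arrays, and the 4 spots were averaged. Well above background means that at least 50% of a probe's spots were. Levels of pools are channel values after loess and Aquantile normalization between arrays. Ratios of 21042 genes were fitted with limma 3.58.1 in R 4.3.3, with a genotype and a dye term (2 residual degrees of freedom, 5.65 prior), and adjusted by the Benjamini-Hochberg method over all genes, or over 27963 probes where stated. The number of arrays limits the precision.

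Mutant and control pools are paired by their array, and same-numbered pools share a sex. The methods compare unpaired groups, which was tried as an alternative. Genes were named if they had an adjusted p below 0.05, were among the 6 largest rises or falls, or stood on a list of cochlear channels. A few genes are included in the counts but not reported singly here. Genes named beyond this rule were chosen after their values were seen. The members and all gene lists were chosen with earlier results of these data known. Sequences are from the array files and from RefSeq.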

Additional observations from a re-analysis of the deposited data

Results flagged for a closer look

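For the 18 genes named by rule, the ratios over 4 arrays and the levels over the 4 pools of each genotype, 54 groups of 4 values in all, were examined for a value far from the other 3 (Dixon's criterion). Chance gives about 1 in 20 such groups. Here 4 of 54 groups held one, in each case a level. The control pool of array 2 was low for *Kcnmb2* (7.94, with the other control pools between 8.33 and 8.35) and for *Kcnq1* (9.59, with the others between 9.82 and 9.86). The mutant pool of array 2 was the lowest mutant pool for both genes, at 7.59 and 9.48, so the ratios on that array were −0.34 and −0.11. The mutant pool of array 4 was low for *Kcnc2* (7.03, with the others between 7.17 and 7.19). The control pool of array 1 was high for *Kcnip1* (6.91, with the others between 6.82 and 6.83), a probe well above background in 2 mutant and 2 control pools.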

How the results depend on the processing

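The number of lower genes, 7 as reported, was 0 without a dye term and 2 with separate channels and no replicate block (0.642% of all genes). In the authors' value table it was 4 (1.22%), and leaving out 1 array gave 2 to 7. It was 5 with processed signals (1.81%), and 9 with an offset of 10 (2.66%) or with the mean over tested probes (3.08%). With the array as a replicate block (correlation 0.58) it was 8 (3.65% of all genes), with 5 of the 7 kept and *Kcna2*, *Kcnd3* and *Kcnj12* added, while *Kcnmb2* (adjusted p = 0.108) and *Kcnc1* (adjusted p = 0.0662) did not pass. The number of higher genes was 1 as reported. It was 0 with processed signals (1.12% of all genes), an offset of 10 (1.8%) or no filter on dim probes (1.52%). It was also 0 with no dye term (0.428%), separate channels without the block (0.39%), the value table (0.746%) or single probes (1.68% of all probes). Leaving out 1 array gave 0 to 1 higher genes (0.58% to 3.02% of all genes). With a fold change of at least 1.5 in addition, 2 genes were lower in processed signals (*Kcna2* and *Kcnma1*), 1 in the value table (*Kcnma1*, with 0.47% of all genes) and 1 among single probes (with 0.254% of all probes), against 0 as reported. The median ratio of −0.011 became 0.020 with median centring and 0 in the value table. Restricting the genes to those with 1 direction on 4 of 4 arrays and a robust variance estimate, both added after the data were seen, gave 5 and 8 lower genes (2.63% and 3.06% of all genes). *Kcnip1* turned from −0.026 to 0.020 with median centring and to 0.056 in the value table, and *Kcnn2* from −0.020 to 0.010 in the value table, and lay between −0.042 and 0.0028 with 1 array left out, none of them at an adjusted p below 0.05. The 8 genes that passed kept their direction in all 18 alternatives each, including the 2 with arrays of 1 sex. Several alternatives, such as the fit with no dye term, leave the mean ratio as it is, so its direction could not change there. None took the arrays of 1 dye direction alone, and *Kcnc1* was above 0 on both arrays with the mutant in Cy3. Over the 18 alternatives, *Kcnj10* lay between −0.44 and −0.33 and *Kcnma1* between −0.66 and −0.21, the last as the mean of both tested probes. A slide block could not be run, because all arrays lie on 1 slide and were scanned once. The cause of these shifts was not tested. Of the 72 tested genes, 11 were not above background in all 8 measurements.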
